A study of Mus musculus with 58 samples.

Results

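In mice that lack Sgsh, microglia that received antisense oligonucleotides against both Mitf and Tfe3 were compared with microglia that received a control oligonucleotide. The comparison holds 16 of the 58 RNA-seq libraries of the series: 8 libraries of the combination and 8 of the control, which the labels call ntc. They were chosen by their titles, which also carry a number called grp, 1 or 2, with 4 libraries of each treatment in each. All 16 come from C57BL/6 SgshKO mice. The oligonucleotides went into the cerebral ventricles as 1 bolus and the microglia were collected 14 days later. Cells were sorted from the forebrain as CD11b+, CD45low and CX3CR1+ singlets, and polyA RNA was sequenced. The labels do not give the age or sex of these mice, how the knockout was made, the dose, the oligonucleotide sequences, whether mice were pooled, or what grp stands for. Whether 2 libraries of a group come from separate mice is likewise not stated, so p-values measure the spread between these libraries. For comparison, 4 libraries each of WT mice given ntc, the Mitf oligonucleotide alone or the Tfe3 oligonucleotide alone were used, as were 7 SgshKO and 4 WT libraries of mice of 8 months that belong to an age series. From that series 4 SgshKO and 3 WT libraries of mice of 3 weeks were used as well. Its SgshKO and WT libraries of mice of 4 months entered the model of all 22 libraries of the series. Libraries of WT mice given PBS or an oligonucleotide against Tfeb entered the models of 20 WT libraries and of 36 libraries of both genotypes. No results of these added groups are described.

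An antisense oligonucleotide (ASO) pairs with a transcript and lowers it. Mitf, Tfe3, Tfeb and Tfec form the MiT/TFE family of transcription factors, which bind E-box sequences and switch on genes of lysosomes, autophagy and lipid handling. Nutrient signalling at the lysosome surface, through the Rag GTPases and the folliculin complex, keeps them in the cytoplasm. Sgsh encodes sulfamidase, a lysosomal enzyme that removes sulfate from heparan sulfate, and its loss causes the storage disease mucopolysaccharidosis IIIA. Microglia are the resident macrophages of the brain. Around stored or damaged material they lower a set of homeostatic genes and raise another set, the disease-associated microglia (DAM) genes, many of which act in lysosomes and lipid handling.

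Total counts ran from 12517838 to 24316555 in the ntc libraries and from 12551854 to 30431437 in the combination. The 12 defining microglial markers checked, among them P2ry12, Tmem119 and Sall1, were all listed, with a summed level of 44334 to 47410 CPM (counts scaled to one common library total) in ntc and 43935 to 50614 CPM in the combination. Neutrophil and monocyte markers differed between the grps: 8 of 17 were listed, and their summed level was 5.52 to 7.44 CPM in ntc and 4.32 to 49.7 CPM in the combination of grp 1, against 83.0 to 632 and 90.7 to 406 CPM in grp 2. Their median log2 fold change with the combination was 2.66 in grp 1 and -0.27 in grp 2. Of those 8 genes only Ccr2 passed the test for treatment, at a log2 fold change of -0.71 ± 0.16 (SE). Sgsh reads remained at 29.2 to 43.3 CPM in ntc and 23.5 to 41.4 CPM in the combination, and since the labels do not say which part of Sgsh is missing, they do not check the genotype. Y-linked transcripts were present in every library, at 157 to 210.4 CPM summed in ntc and 143 to 178 CPM in the combination. Of the 4 listed Eif2s3y was called lower (-0.50), at 28.3 to 36.3 CPM in ntc and 15.2 to 32.1 CPM in the combination. Its call was lost in either grp alone and without ntc grp 1 replicate 2. In sorted bulk samples, fewer cells of a type and less RNA per cell cannot be told apart.

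Both targets fell. Mitf stood at 60.7, 65.7, 72.1 and 74.1 CPM in the ntc libraries of grp 1 and at 72.8, 75.1, 76.4 and 82.1 CPM in those of grp 2. With the combination it stood at 7.51, 11.5, 14.7 and 14.8 CPM in grp 1 and at 15.3, 16.1, 19.1 and 23.2 CPM in grp 2. The treatments did not overlap, and the mean of the combination was 21.1% of the ntc mean (15.3 ± 4.67 against 72.4 ± 6.57 CPM, SD, n = 8 each). The log2 fold change was -2.26 ± 0.13 (SE), with an adjusted p of 1.42e-08 by the quasi-likelihood F test of edgeR with grp in the model.

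Tfe3 was lowered less far. Its ntc libraries ran from 137 through a median of 173 to 194 CPM, and its combination libraries from 75.0 through 79.3 to 87.1 CPM. Again no combination library reached the lowest ntc library, and the combination kept 47.2% of the ntc mean. The log2 fold change was -1.08 ± 0.06 (edgeR, adjusted p = 5.30e-10), which is the smallest p in the comparison. Mitf lies on chromosome 6 (97807052-98021349, plus strand) and Tfe3 on the X chromosome (7762560-7775202, plus strand) of GRCm38, in GENCODE M21.

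Tfeb, the family member that the combination does not name, was at 38.6 to 56.9 CPM in ntc and 34.5 to 47.5 CPM in the combination, so the ranges overlapped. Its log2 fold change of -0.26 ± 0.08 passed the threshold narrowly (edgeR, adjusted p = 0.0477), with -0.11 in grp 1 and -0.41 in grp 2. That call was lost when any 1 of 11 of the 16 libraries was left out, without the grp term and with RLE size factors. Tfec, the remaining member, was not listed.

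**Figure D1:**
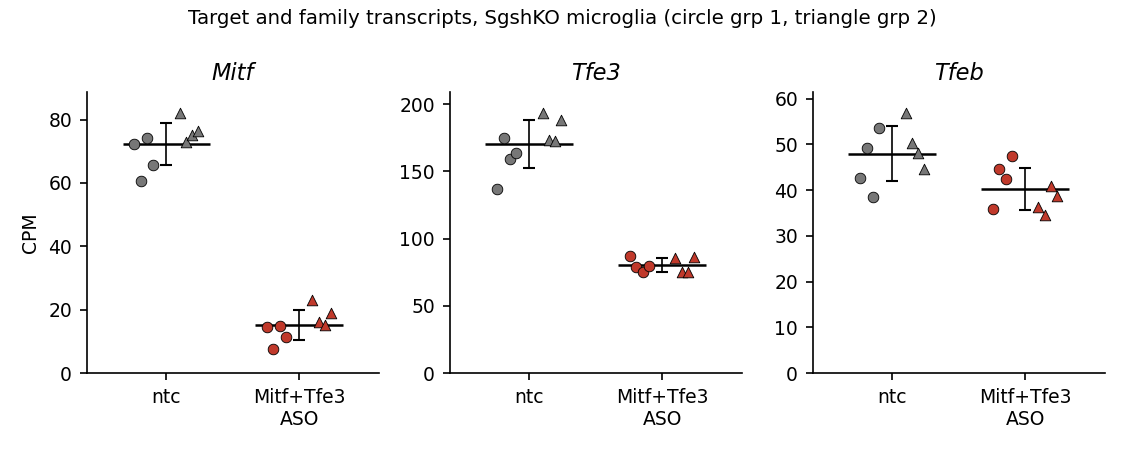
CPM of Mitf, Tfe3 and Tfeb (vertical axes, from 0) in each of the 16 SgshKO libraries, by treatment, with circles for grp 1, triangles for grp 2, a line at the mean of 8 and a bar for 1 SD. Mitf and Tfe3 separate the treatments in both grps, whereas Tfeb runs from 38.6 to 56.9 CPM in ntc and from 34.5 to 47.5 CPM in the combination.

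Across the 10589 genes listed, 999 passed an adjusted p of 0.05 (9.43% of those tested): 517 were higher with the combination (4.88%) and 482 lower (4.55%). Most differences were small. The median size among the called genes was 0.27 on the log2 scale, 96 differed by at least 1.5-fold (61 higher, 35 lower) and 11 by at least 2-fold. The 8 and 8 libraries did not overlap for 112 genes, 1.06% of those tested. All 999 had the same sign in both grps, which their selection by a test over both grps favours, so this is no separate check. The median log2 fold change of all genes was 0.00, and the scaling of the libraries tends to place it there. The grp number mattered to the count: a model without it called 456 genes, and leaving out ntc grp 1 replicate 2 gave 656.

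The folliculin and Rag genes are the machinery that holds the MiT/TFE factors inactive. Of 21 measured, 6 fell and none rose, and the median of the list was -0.04, against 0.00 for all genes. Beside this and each later list count stand the shares of all genes tested, 4.88% higher and 4.55% lower. Flcn, which encodes folliculin, was at 145 to 197 CPM in ntc (median 173) and 118 to 153 CPM in the combination (median 139), a log2 fold change of -0.31 ± 0.06 (edgeR, adjusted p = 0.00448). The ranges overlapped at their edges. Rragd and Rragc, the Rag GTPases that pair with Raga or Ragb, changed by -0.43 ± 0.08 and -0.32 ± 0.07. Gpr137b, a lysosomal membrane protein that acts on Rag cycling, fell from 216 to 261 CPM to 151 to 205 CPM with no overlap (-0.37 ± 0.06). The other two, named after their values were seen, were the folliculin partners Fnip2 (-0.45 ± 0.11, no overlap) and Fnip1 (-0.34 ± 0.09). In each of the 6 the point estimate was larger in grp 1 than in grp 2, as with Flcn at -0.46 and -0.17. Flcn and Rragc did not pass in a fit of grp 2 alone, at -0.18 and -0.18.

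Because the MiT/TFE factors bind CACGTG, promoter windows of 300 bases (250 before to 50 after the gene start, RefSeq, GRCm38.p6) were searched for that hexamer, for the M-box TCATGTG and for the CLEAR sequence, which is CACGTG with GT before and AC after it, on both strands. Every CLEAR match is thus also a CACGTG match. Among all 27025 windows 7.24% held CACGTG, 3.74% the M-box and 0.359% the CLEAR sequence. The genes tested that had a window held them in 10.85%, 2.07% and 0.870%. Of the 385 called lower with a window, 64 held CACGTG (16.6%) and 20 the M-box (5.19%), and of the 404 called higher, 30 (7.43%) and 8 (1.98%). The CLEAR sequence stood in 2 of the windows called lower and 5 of those called higher. In the folliculin and Rag list, 2 of 5 windows of genes called lower held CACGTG (40%), against 5 of 19 windows of all its tested members (26.3%). In the 4 lysosomal lists described below, 6 of 23 windows of genes called lower held CACGTG (26.1%), against 21 of 86 windows of all their tested members (24.4%). None of the 13 windows of DAM genes called lower held any of the 3, and neither did 16 of 17 windows of interferon genes called higher.

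The stretches of 30 bases around CACGTG are shown for called folliculin, Rag and lysosomal genes where they lie wholly before the gene start, with the hexamer in capitals. All the genes shown were called lower. They lie at chr11:54438092-54438121 (Fnip1, plus strand), chr4:123917309-123917338 (Rragc, plus), chr11:101070009-101070038 (Naglu, plus), chr16:44139373-44139402 (Atp6v1a, minus), chr8:3500436-3500465 and chr8:3500462-3500491 (Mcoln1, plus) and chrX:134601215-134601244 and chrX:134601182-134601211 (Gla, minus), each 5′ to 3′ on the gene's strand. The hexamer begins 75 bases before the gene start in Fnip1, 112 in Rragc, 73 in Naglu, 131 in Atp6v1a, 71 and 45 in Mcoln1 and 227 and 194 in Gla. Gpr137b had no window. A match is a description of the letters and not a bound site.
Fnip1: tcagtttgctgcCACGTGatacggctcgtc
Rragc: ggtgattccgggCACGTGatagtaccactt
Naglu: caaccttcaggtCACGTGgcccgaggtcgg
Atp6v1a: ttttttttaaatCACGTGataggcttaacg
Mcoln1, first: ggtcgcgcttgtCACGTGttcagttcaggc
Mcoln1, second: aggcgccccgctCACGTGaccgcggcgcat
Gla, first: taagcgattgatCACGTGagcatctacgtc
Gla, second: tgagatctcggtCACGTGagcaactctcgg

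Genes of the lysosomal membrane mostly fell where they changed. Of 42 membrane proteins and channels, 14 fell and 1 rose, with a list median of -0.13. Slc11a2, an iron transporter, ran from 70.4 through 74.4 to 86.8 CPM in ntc and from 48.4 through 53.2 to 62.7 CPM in the combination. These did not overlap, and the log2 fold change was -0.53 ± 0.05 (edgeR, adjusted p = 6.17e-06). Ctns, the cystine exporter, changed by -0.34 ± 0.07, Clcn7, a chloride and proton exchanger, by -0.31 ± 0.06 and the macrophage glycoprotein Cd68 by -0.31 ± 0.05. The member that rose was Npc2, which carries cholesterol in the lysosome lumen, from 804 to 879.7 CPM up to 888 to 1029 CPM (0.19 ± 0.04).

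The V-ATPase pumps protons into the lysosome. Of 17 subunit genes 7 fell and none rose, with a median of -0.13. Libraries of the treatments separated for none of them, against 1.06% of all genes tested. Atp6v1a, of the catalytic head, was at 334 to 448 CPM in ntc and 287 to 359 CPM in the combination (-0.28 ± 0.06), and Atp6v0c, of the membrane ring, changed by -0.23 ± 0.05. Atp6v1b2 (-0.17 ± 0.04) and Atp6v1c1 (-0.22 ± 0.06) were the other two of the smallest p. Without the grp term 3 V-ATPase, 7 membrane and 5 hydrolase genes were called lower.

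Lysosomal hydrolases split. Of 43, 9 fell and 4 rose, and the list median was -0.04. Naglu, the glucosaminidase that acts in heparan sulfate breakdown, ran from 300.0 through 322 to 353 CPM in ntc and from 215 through 236 to 272 CPM in the combination. It did not overlap between the treatments, and its log2 fold change was -0.42 ± 0.05 (edgeR, adjusted p = 8.68e-05). Lipa, the acid lipase that frees cholesterol from its esters, fell by 0.34 on the log2 scale, and Galc, which degrades galactosylceramide, by 0.25, each without overlap. Against these, Gm2a, the activator protein for ganglioside breakdown, rose from 373 to 599 CPM up to 589.5 to 743 CPM (0.44 ± 0.06). Among 12 cathepsins, the lysosomal proteases, none fell and 2 rose: Ctss from 5461 to 7012 CPM up to 7907 to 9141 CPM (0.47 ± 0.05, no overlap) and Ctsh by 0.18 ± 0.04. Ctsb, another protease of the list, did not pass (0.09 ± 0.04, edgeR, adjusted p = 0.164).

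Heparan sulfate is the substrate stored in these mice. Hpse, the heparanase that cuts its chains, was among the genes that moved most: its ntc libraries ran from 123 through 152 to 169.8 CPM and its combination libraries from 44.9 through 70.8 to 103 CPM. The treatments did not overlap, and the combination mean was 48.9% of the ntc mean (-1.03 ± 0.13, edgeR, adjusted p = 0.000238). Of the 13 genes of heparan sulfate breakdown 3 fell, Hpse, Naglu and Idua (-0.14 ± 0.04), and 1 rose. The call of Idua was lost when any 1 of 10 libraries was left out. Of 46 autophagy genes 3 rose and 2 fell with a median of 0.00, against 4.88% higher and 4.55% lower among all genes tested. Vps18, a tethering factor for fusion with lysosomes, led them (-0.36 ± 0.06).

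**Figure D2:**
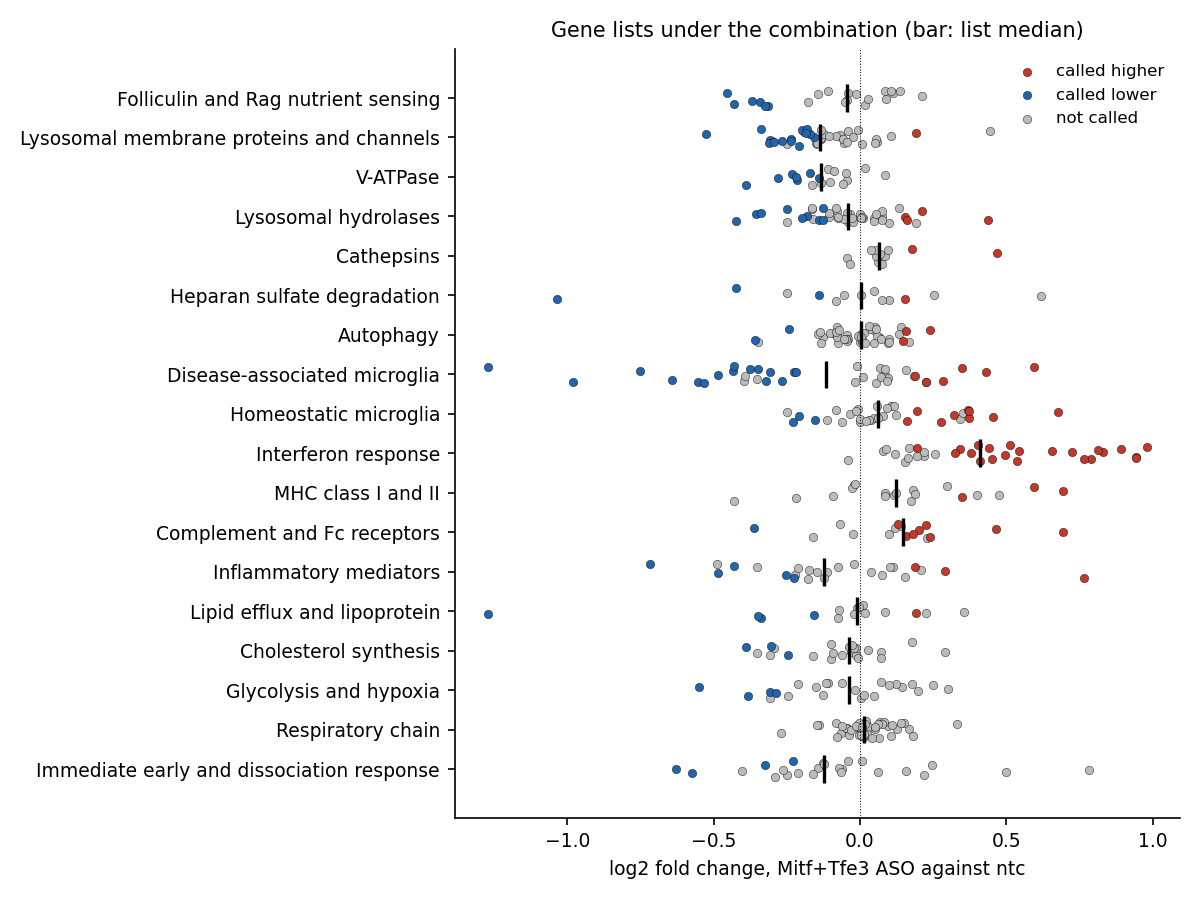
Log2 fold change of the combination against ntc (horizontal axis) for each measured gene of the lists (vertical axis), coloured by call at an adjusted p of 0.05, with a bar at the list median. Interferon response genes lie to the right with a median of 0.41, V-ATPase and lysosomal membrane genes to the left with medians of -0.13, and no respiratory chain gene was called.

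DAM genes changed in both directions. Of 38 measured, 16 fell and 6 rose, with a median of -0.12. Itgax, which encodes CD11c, ran from 206 through 224 to 240.1 CPM in ntc and from 131 through 141 to 166 CPM in the combination. No library of 1 treatment reached the other, and the log2 fold change was -0.64 ± 0.04 (edgeR, adjusted p = 1.42e-08). Clec7a, the receptor dectin-1, fell from a median of 325 CPM (292 to 334) to one of 232 CPM (156 to 259), and Cst7, a protease inhibitor, from 112 (98.2 to 123) to 85.7 CPM (78.5 to 91.5). Their log2 fold changes were -0.55 ± 0.07 and -0.38 ± 0.05, again without overlap.

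Fabp5, a fatty acid binding protein, went from 5.29 to 9.49 CPM to 2.15 to 5.03 CPM (-1.27 ± 0.17), the largest decrease after Mitf among genes with a mean of at least 5 CPM. Gpnmb, a glycoprotein of phagocytes with lysosomal load and a known MITF target in pigment cells, was at 2.34 to 4.74 CPM in ntc and 1.23 to 3.39 CPM in the combination (-0.75 ± 0.21), and its call was lost without any 1 of 4 libraries. The members that rose were B2m and H2-D1, parts of MHC class I, at 0.35 ± 0.05 and 0.60 ± 0.10, and, named after their values were seen, the ferritin chain Fth1 (0.23 ± 0.04), the signalling adaptor Tyrobp (0.28 ± 0.06), lysozyme Lyz2 (0.43 ± 0.11) and the chemokine Ccl6 (0.19 ± 0.05). Apoe (0.23), Trem2 (0.09), Lpl (-0.01) and Spp1 (0.16), central DAM genes also singled out after their values were seen, did not pass.

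Homeostatic genes shifted less. Of 34, 9 rose and 3 fell, with a median of 0.06. Cst3, cystatin C, ran from 4951 through 5816 to 6092 CPM in ntc and from 7387 through 9216 to 9894 CPM in the combination, without overlap (0.68 ± 0.06, edgeR, adjusted p = 2.63e-07). Siglech, a lectin of microglia, rose from 427 to 680.3 CPM up to 685 to 975 CPM (0.46 ± 0.06), and Sparc, a matrix protein, from 2762 to 3312 up to 3784 to 4290 CPM (0.37 ± 0.04). The 3 that fell, named after their values were seen, were Cd33, Gpr34 and P2ry13, at -0.23, -0.21 and -0.15, with -0.05, -0.03 and -0.06 in grp 2. None of the 3 was called without the grp term.

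**Figure D3:**
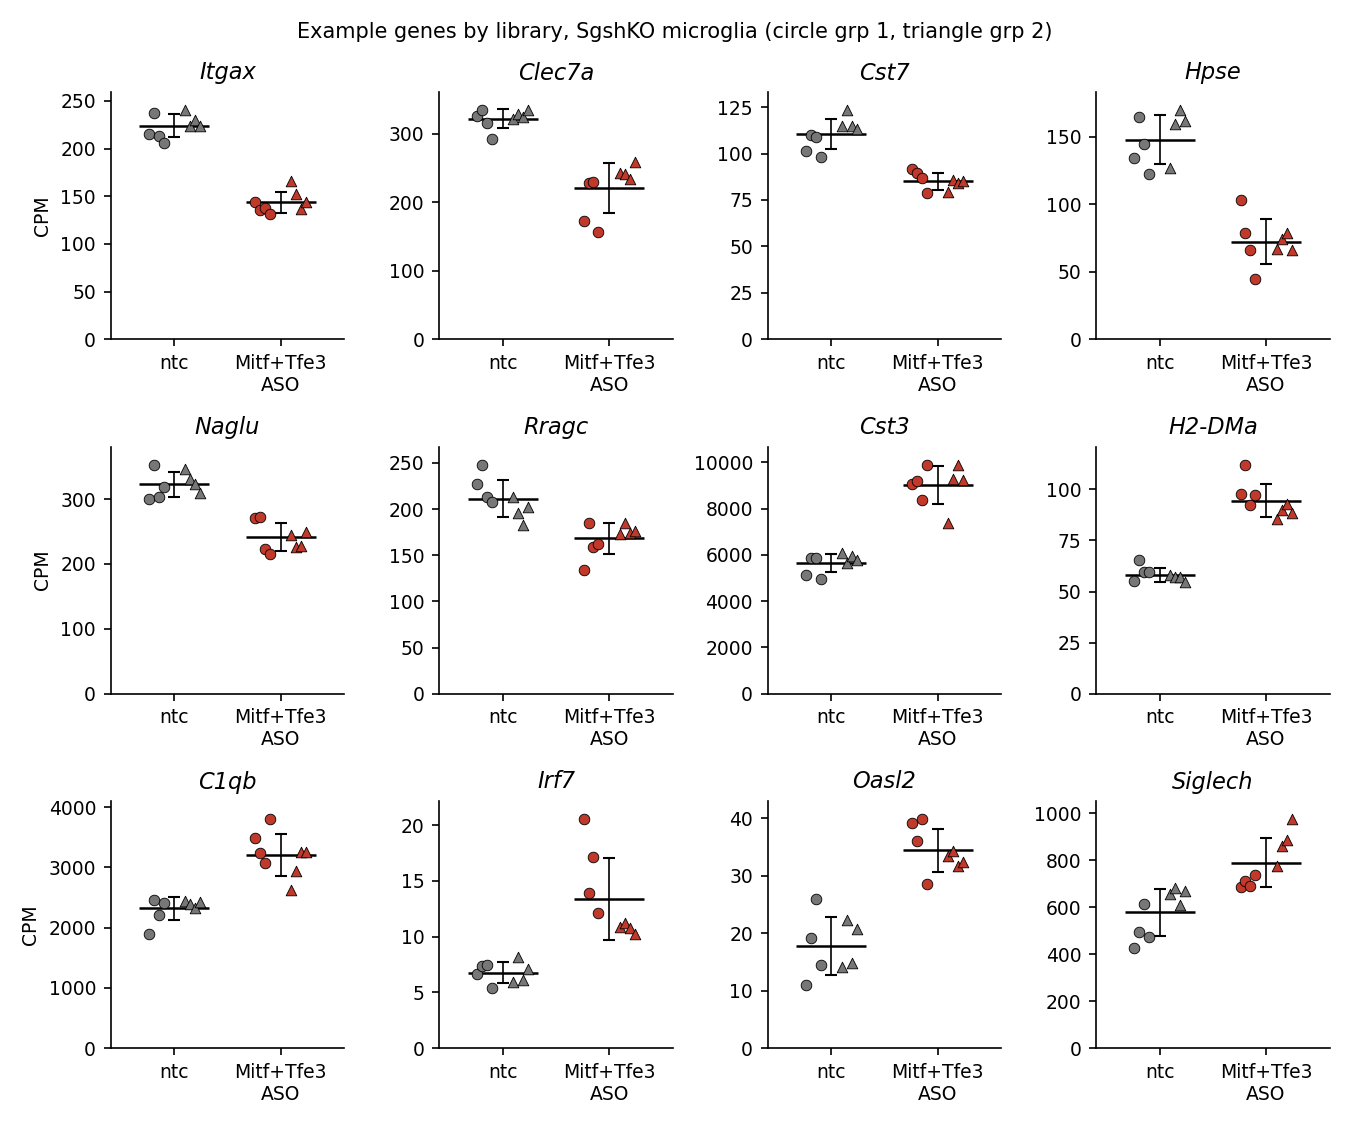
CPM of 12 genes (vertical axes, from 0) in each of the 16 SgshKO libraries, with circles for grp 1, triangles for grp 2, a line at the mean of 8 and a bar for 1 SD. Itgax, Clec7a, Cst7, Hpse and Naglu lie lower and Cst3, H2-DMa, C1qb, Irf7, Oasl2 and Siglech higher in all combination libraries, while Rragc overlaps.

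Interferon response genes rose as a block: 22 of 33 measured were called higher and none lower, and the median was 0.41, with 0.38 in grp 1 and 0.43 in grp 2. Irf7, the transcription factor that amplifies the type I interferon response, ran from 5.43 through 6.86 to 8.20 CPM in ntc and from 10.3 through 11.7 to 20.5 CPM in the combination, without overlap (0.94 ± 0.13, edgeR, adjusted p = 0.000141). Ifi204, a DNA sensor of the same response, went from 16.9 to 25.5 CPM up to 29.2 to 41.7 CPM (0.79 ± 0.09). Ifitm3, which blocks viral entry, changed by 0.89 ± 0.10 and Ifi27l2a by 0.98 ± 0.14, both with overlapping libraries. Levels stayed low: the highest value in any library among these 4 was 41.7 CPM, for Ifi204. Without the grp term 14 of the 33 were called.

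H2-DMa, which loads peptides onto MHC class II, ran from 54.6 through 57.6 to 65.5 CPM in ntc and from 85.7 through 92.5 to 112 CPM in the combination (0.69 ± 0.05, edgeR, adjusted p = 1.42e-08), without overlap. It was 1 of 3 of 19 MHC genes that rose, with B2m and H2-D1, and none fell. Among 16 complement and Fc receptor genes 8 rose and 1 fell. C1qb, of the first complement component, went from 1893 to 2459 CPM up to 2626 to 3798 CPM (0.47 ± 0.07), whereas C3ar1, the receptor for C3a, went from 948 to 1202 CPM down to 726 to 901 CPM (-0.36 ± 0.05). Both kept their treatments apart.

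Inflammatory mediators were mixed, with 5 of 25 lower and 3 higher. Tlr2, a sensor of bacterial lipids, fell by 0.43 ± 0.07 on the log2 scale, Nfkbia, an inhibitor of NF-kB that NF-kB itself induces, by 0.25 ± 0.06 and the RNA sensor Tlr7 by 0.23 ± 0.05, and Ccl9, a chemokine, rose (0.29 ± 0.07). Of 24 immediate early genes, which also respond to tissue dissociation, 4 fell and none rose, among them Egr3 (-0.63 ± 0.16) and Junb (-0.32 ± 0.07). The calls of Junb and Nfkbia were lost without the grp term. Their part in the decrease of Nfkbia and other inflammatory genes was not tested.

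Metabolic lists changed at few points. Hif1a, the hypoxia-inducible factor, ran from 788 through 851 to 929 CPM in ntc and from 429.7 through 606 to 665 CPM in the combination (-0.55 ± 0.08, edgeR, adjusted p = 0.000315), without overlap. With it fell the glucose transporter Slc2a1 (-0.31 ± 0.05), the glycolytic regulator Pfkfb3 (-0.29 ± 0.04) and the lactate exporter Slc16a3 (-0.38 ± 0.07), so 4 of 24 glycolysis and hypoxia genes fell and none rose. None of 44 respiratory chain genes passed in edgeR, with 3 at an unadjusted p under 0.05 and a median of 0.01, and DESeq2 called 0 as well. The fit of grp 2 alone called 1 higher. Of 23 cholesterol synthesis genes 3 fell, Insig1 (-0.39 ± 0.08), Dhcr7 (-0.30 ± 0.05) and Msmo1 (-0.24 ± 0.07), the last of which lost its call without any 1 of 5 libraries. Of 15 lipid efflux genes 4 fell and 1 rose. Soat1, which esterifies cholesterol for storage, fell from 381 to 464 CPM to 313 to 372 CPM (-0.35 ± 0.05). Mcm3, a helicase subunit of DNA replication (-0.26 ± 0.06), was the only 1 of 19 cell cycle genes to pass, against 9.43% of all genes tested.

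Several of the 12 largest decreases belong to no list. Ccrl2, a chemokine-binding receptor, went from 19.7 to 32.4 CPM to 12.95 to 18.4 CPM (-0.72 ± 0.07), Chml, a Rab escort protein, from 29.1 to 39.7 to 16.2 to 27.0 CPM (-0.69 ± 0.07) and Gas2l3, a cytoskeletal linker, from 21.2 to 25.3 to 8.57 to 15.1 CPM (-0.80 ± 0.09), each without overlap. The chemokine receptor Cxcr4 changed by -0.83 ± 0.17 and the muscle type cytochrome oxidase subunit Cox6a2 by -0.70 ± 0.15. Cd200r4, a receptor of myeloid cells (-0.72 ± 0.10), Asb10 (-0.68 ± 0.10) and Gm13889 (-0.84 ± 0.19) complete that group with Mitf, Fabp5, Tfe3 and Hpse.

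Of the 12 largest increases 6 were interferon-inducible genes: Ifi27l2a, Irf7, Oasl2 (0.94 ± 0.14), Ifi209 (0.94 ± 0.14), Ifitm3 and Ly6a (0.86 ± 0.13). Another 5, beside Notch4, were Golgb1, a Golgi scaffold (0.91 ± 0.25), Bod1l (1.01 ± 0.22), Tpr, of the nuclear pore (0.89 ± 0.18), Myh9, a myosin heavy chain (0.88 ± 0.25), and Pou2f2, a transcription factor (0.85 ± 0.19). Their longest annotated transcripts are 11001, 10540, 7480, 7433 and 7095 bases. Myh9 ran from 31.4 to 201 CPM in ntc and 137 to 291 CPM in the combination, and it and Golgb1 lost their calls without any 1 of 11 and of 8 libraries. Length classes were formed of protein-coding genes only. Among all 603 with a transcript over 8000 bases, 72 were higher (11.9%) and 19 lower (3.15%), against 4.88% and 4.55% of all genes tested, coding or not. Golgb1 and Bod1l belong to that class. Among the 3134 of over 4000 to 8000 bases, which hold Tpr, Myh9, Pou2f2 and Notch4, 4.88% were higher and 5.81% lower. Short genes also had more increases than decreases: 5.65% and 1.41% up to 1000 bases, and 5.36% and 2.79% over 1000 to 2000 bases. The median level of the genes over 8000 bases relative to each gene's own mean was -0.20 to -0.04 (log2) in the ntc libraries of grp 1 and 0.04 to 0.19 in those of grp 2, against -0.12 to -0.03 and 0.10 to 0.22 in the combination. The part of transcript length in these increases was not tested. Notch4, a receptor of the Notch family and the largest increase by this rule, went from 3.52 to 5.61 CPM up to 6.27 to 24.0 CPM (1.10 ± 0.20). On the batch-corrected signal of Notch4 the log2 difference was 0.24 and 0.22 (limma, adjusted p = 0.710 and 0.711 with pseudocounts of 1 and 8), and its call was also lost in grp 1 alone. The calls of Tpr and Gas2l3 were likewise lost on that signal, and that of Tpr without the grp term. Endothelial and mural markers, of which 5 of 14 were listed and none was called, summed to 112 to 182 CPM in ntc and 107 to 217 CPM in the combination, and their part in Notch4 was not tested.

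Of 3 border macrophage markers listed of 12, Mrc1 (0.22 ± 0.05) and Siglec1 (0.63 ± 0.15) rose, and the list summed to 829.01 to 1307 CPM in ntc and 1012 to 1376 CPM in the combination. Of 5 of 16 oligodendrocyte markers, Mobp rose (1.247 ± 0.22) from 1.09 to 3.85 CPM up to 2.85 to 7.08 CPM, and the list summed to 141 to 169 and 151 to 178 CPM. Of 2 of 18 lymphocyte markers Ighm rose (0.24 ± 0.05), with a sum of 315 to 376 CPM in ntc and 373 to 474 CPM in the combination. Astrocyte markers, 7 of 13 listed, summed to 310.5 to 483 and 305 to 549.9 CPM, and neuronal ones, 2 of 14, to 12.5 to 17.7 and 8.12 to 15.8 CPM, with no member called. These marker genes were named after their values were seen, and their part in the increases above was not tested.

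The effect in grp 2 was set against that in grp 1 with an interaction term. In the model that holds both, 1324 genes were called in grp 1 (12.5%) and 223 in grp 2 (2.11%), but with each grp fitted alone the order turned, with 258 in grp 1 and 486 in grp 2. Among the 999 genes called over both grps the absolute log2 fold change was larger in grp 1 for 708. The difference itself passed for 0 of 10589 genes by edgeR (0%). At an unadjusted p under 0.05 by edgeR there were 1728 of these 10589, where a share of 0.05 is reached with no difference at all. The smallest adjusted p by edgeR was 0.0715. DESeq2 called 223 of 6893 genes tested, with a log2 fold change higher in grp 2 than in grp 1 for 69 and lower for 154, signs included. Leaving out single libraries gave 0 to 31 calls by edgeR, with 31 without combination grp 1 replicate 3. The 6 genes with the smallest p were Srsf7, Ssh3, Rbm39, Ap3d1, Bcl9 and Tex30, with differences of 0.71 ± 0.12, -0.74 ± 0.13, 0.78 ± 0.14, -0.52 ± 0.10, -0.57 ± 0.11 and 1.498 ± 0.29 on the log2 scale. Srsf7 and Rbm39 act in splicing. Both were below ntc in grp 1, at -0.44 and -0.45, and above it in grp 2, at 0.27 and 0.32.

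In WT mice the single ASOs had reached deeper knockdown of their own targets. The Mitf ASO changed Mitf by -4.81 ± 0.12 and left Tfe3 at -0.01 ± 0.05, and the Tfe3 ASO changed Tfe3 by -2.38 ± 0.06 and left Mitf at 0.04 ± 0.09. In the age series at 8 months Mitf was called higher in SgshKO than in WT (0.84), while Tfe3 was not called (0.06). Tested as a difference of differences over 9851 genes listed in both files, the combination lowered Mitf less in SgshKO than the Mitf ASO did in WT, by 2.57 ± 0.22 (edgeR, adjusted p = 1.17e-09), and Tfe3 less than the Tfe3 ASO did, by 1.31 ± 0.09 (adjusted p = 1.00e-12). Such a difference changes genotype, the number of ASOs and the file together, and these cannot be told apart. It was called for 978 genes against the Mitf ASO (9.93%) and 257 against the Tfe3 ASO (2.61%). Without the grp term these counts were 297 and 25. Leaving out single libraries gave 673 to 1049 and 133 to 335, the last range with 133 without WT ntc replicate 2.

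Lysosomal and DAM genes differed between the settings. The Mitf ASO in WT, which called 5.76% of genes higher and 5.38% lower, raised 20 of 42 hydrolases and 8 of 17 V-ATPase genes and lowered none, where the combination in SgshKO lowered 9 and raised 4 of 43 hydrolases and lowered 7 of 17 V-ATPase genes. Of 33 DAM genes listed in both files it raised 20 and lowered none, at a median of 0.51. The difference of differences was lower in SgshKO for 17 of those 33, 20 of 42 hydrolases and 11 of 17 V-ATPase genes, and higher for none of them. Levels without these ASOs can differ between the genotypes: at 8 months Itgax was higher in SgshKO than in WT by 4.02 (log2). The part of such levels in these differences was not tested. Itgax was at 1.04 ± 0.25 with the Mitf ASO in WT and at -0.64 ± 0.04 with the combination in SgshKO, a difference of -1.67 ± 0.21 (edgeR, adjusted p = 4.23e-06). The corresponding values of Cst7 were 1.45 ± 0.29, -0.38 ± 0.05 and -1.83 ± 0.24. Those of Cd63, a tetraspanin of late endosomes, were 0.98 ± 0.08, -0.27 ± 0.06 and -1.23 ± 0.11. Dpp7, a lysosomal peptidase, had the smallest p, with 1.12 ± 0.10 in WT, -0.29 ± 0.04 in SgshKO and a difference of -1.40 ± 0.11. Anxa5 and Ctsb, at 1.11 and 0.82 in WT, did not pass in SgshKO (-0.03 and 0.09) but differed between the settings by -1.13 ± 0.08 and -0.72 ± 0.06. Homeostatic genes differed the other way, higher in SgshKO for 16 of 34 and lower for none.

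Against the Tfe3 ASO in WT, which called 1.45% of genes higher and 0.769% lower, 12 of 33 DAM genes were lower in the difference and none higher. Gpr162, an orphan receptor, changed by 1.67 ± 0.20 with that ASO and by -0.67 ± 0.10 with the combination, and Cd9, a tetraspanin, by 0.57 ± 0.07 and -0.22 ± 0.05. The differences were -2.34 ± 0.23 and -0.79 ± 0.09. Interferon genes did not separate the settings in the same way: none of 28 listed in both files fell in WT, 1 rose with the Mitf ASO and none with the Tfe3 ASO, at medians of 0.23 and 0.19, and the difference was called for 4 and 2 of them, all higher in SgshKO. Irf7 was at 1.30 ± 0.46 with the Mitf ASO in WT (adjusted p = 0.0885 by edgeR), and its difference of -0.36 ± 0.42 had an adjusted p of 0.680. Over all genes listed in both files, 71 of the 507 called higher by the combination were also higher with the Mitf ASO in WT (14.0% of them, 12.1% of the 589 called there) and 30 were lower. Of 455 called lower, 34 were lower there as well (7.47%, and 6.37% of 534) and 87 were higher. With the Tfe3 ASO in WT, 42 of the 507 were also higher (8.28%, and 28.6% of 147) and 2 lower, and 18 of the 455 were also lower (3.96%, and 23.4% of 77) and 10 higher.

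**Figure D4:**
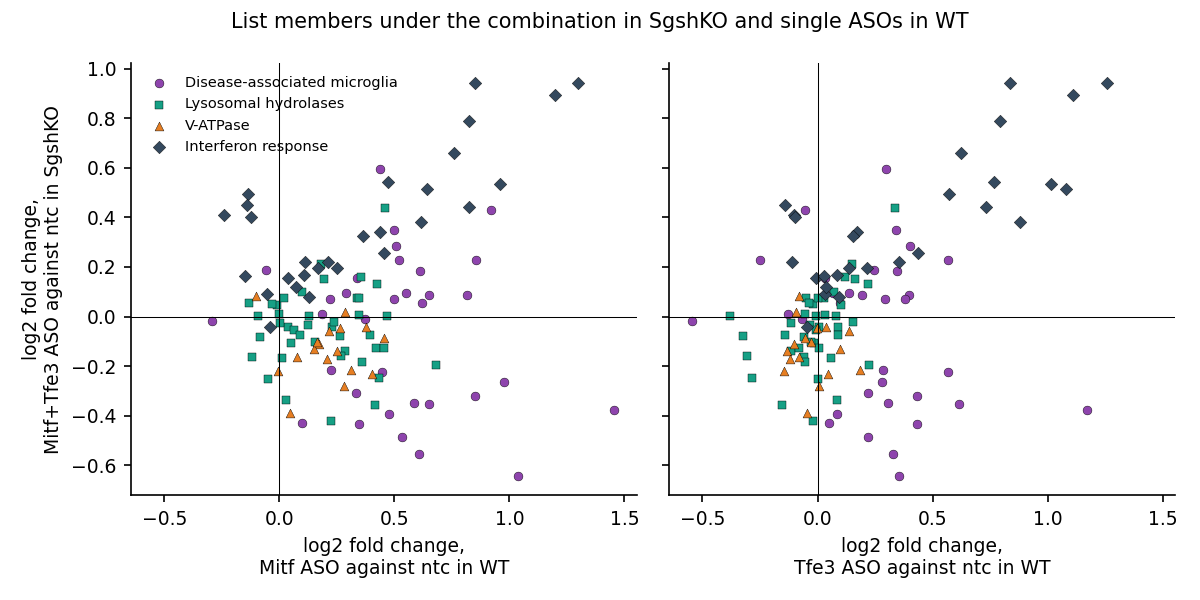
Log2 fold change of the combination in SgshKO (vertical axis) against that of the Mitf ASO (left panel) and the Tfe3 ASO (right panel) in WT (horizontal axes) for the genes of 4 lists measured in both. Itgax and Cst7, at 1.04 and 1.45 with the Mitf ASO in WT and -0.64 and -0.38 in SgshKO, lie in the lower right, while most interferon genes lie in the upper part. In each panel all points share the ntc libraries of their file.

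The last comparison asks how genes that differ between SgshKO and WT microglia behaved with the combination. At 8 months, in libraries with no ASO in their labels and counted in a file of their own, 21.4% of 14309 genes were higher in SgshKO and 18.7% lower. Of 10142 genes matched by symbol, 2324 were higher in SgshKO, and 248 of these were lowered by the combination (10.7%) and 152 raised (6.54%). Of 2340 genes lower in SgshKO, 169 were raised (7.22%) and 55 lowered (2.35%). Genes with no call at 8 months were raised in 3.43% and lowered in 3.09%. Read from the other side, 52.5% of the 472 genes lowered by the combination were higher in SgshKO and 11.7% lower. The shares of all matched genes were 22.9% and 23.1%. The 509 genes raised by the combination were less one-sided, with 29.9% higher in SgshKO and 33.2% lower. Genes called at 3 weeks gave larger shares: 25.0% of those higher in SgshKO were lowered and 16.1% of those lower were raised. Medians stayed near 0, at 0.00 and 0.01 for the sets of 8 months. The grp term bears on the second share, since 2.18% of the genes lower in SgshKO were raised without it.

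Of the 20 largest increases in SgshKO, 3 fell with the combination and none rose. Hpse was at 0.160 ± 0.135 CPM in WT (SD, n = 4) and 168 ± 10.8 CPM in SgshKO (n = 7) at 8 months. Mamdc2, a secreted protein, was at 0.0600 ± 0.0723 and 13.7 ± 5.27 CPM, and it fell from 2.05 to 7.18 CPM to 1.12 to 3.55 CPM with the combination (-0.98 ± 0.26), a call lost without any 1 of 3 libraries. Gpnmb was at 0.421 ± 0.134 and 25.5 ± 7.20 CPM. The other 17 did not pass, among them Lox at 241 CPM median in ntc and 221 CPM in the combination, and 7 neutrophil genes such as S100a8 and Ltf.

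Of the 20 largest decreases in SgshKO, 9 rose with the combination and none fell. Mycl, a member of the Myc family, was at 167 ± 34.4 CPM in WT and 8.63 ± 4.01 CPM in SgshKO at 8 months, and with the ASOs it ran from 2.10 through 2.74 to 3.68 CPM in ntc and from 5.20 through 6.09 to 12.4 CPM in the combination. The treatments did not overlap (1.29 ± 0.16, edgeR, adjusted p = 6.85e-05). Notch4 was at 230.0 ± 105 and 15.5 ± 7.49 CPM by genotype. Serpinf1, an antiangiogenic serpin, at 85.4 ± 6.35 and 13.4 ± 2.88 CPM by genotype, went from 10.7 to 15.2 CPM up to 15.9 to 21.2 CPM (0.56 ± 0.09), and Tmem176a, a membrane protein of antigen-presenting cells, from 16.2 to 22.96 up to 25.6 to 32.1 CPM (0.58 ± 0.08). Igfbp4 (0.52 ± 0.08), Bmp1 (0.73 ± 0.17), Rnf150 (0.61 ± 0.12), Sult1a1 (0.65 ± 0.13) and Tmem176b (0.27 ± 0.08) were the others, the last of which lost its call without any 1 of 4 libraries. The 2 sets of libraries were counted in different files, so the CPM of one set are not a reference level for the other. The direction was not the same for all lists. Of the DAM genes 37 were higher in SgshKO at 8 months and none lower, and the combination lowered 16 and raised 6. Of the homeostatic genes 1 was higher in SgshKO and 26 lower, and the combination raised 9 and lowered 3. Of the interferon genes 22 were higher in SgshKO and 2 lower, and the combination raised 22 and lowered none. MHC genes (16 higher in SgshKO, none lower) and cathepsins (9 and 1) were likewise only raised, 3 and 2 of them. How many genes these counts share was not counted.

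**Figure D5:**
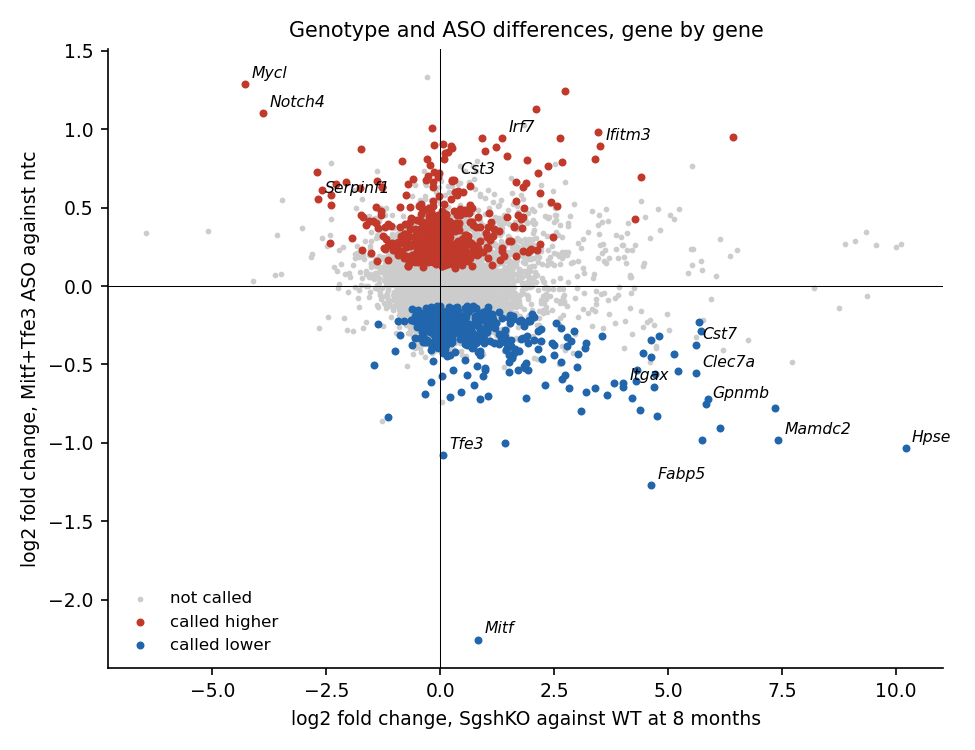
Log2 fold change of the combination against ntc (vertical axis) against that of SgshKO over WT at 8 months (horizontal axis), 1 point per matched gene, coloured by the call under the combination. Hpse, Mamdc2 and Gpnmb lie at the lower right, Mycl and Notch4 at the upper left, and Irf7 and Ifitm3 at the upper right.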

How the data were processed

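The members and gene lists were chosen with earlier results of these data known. The authors deposited raw counts per gene. STAR 2.5.3a, kallisto 0.44.0, HOMER 4.11, DESeq2 1.36.0, R 4.2.3 and build mm10 are named in the submitters' processing notes, without their roles. The authors also deposited a batch-corrected signal per gene, whose method is not given in the sources used here. It served only as an alternative, as log2(signal + 1) and log2(signal + 8) in limma 3.58.1. Each of the 10589 genes in the SgshKO file had a mean of at least 39.25 counts. Genes sharing 1 of 9 repeated symbols were kept apart by identifier.

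Counts were tested with the quasi-likelihood F test of edgeR 4.0.16 in R 4.3.3 (robust, TMM factors, low counts filtered by filterByExpr at 10), with treatment and grp in the model, Benjamini-Hochberg adjustment over all genes tested and a threshold of 0.05. "Called" means past it. CPM are scaled by library total and TMM factor. Standard errors (SE) were taken as the absolute log2 fold change over the root of F. Differences between settings came from 1 model over 36 ASO libraries of both genotypes with a grp term within each genotype (1 WT PBS library, whose title says grp 4 and column name grp 3, was put in grp 4 here and in the WT fit), and the genotype comparison from a model of 22 libraries. The model was tested on simulated counts that held no difference between the grps, so that run does not bear on the grp term. Within a treatment and grp, pairs of libraries differed by a chi-square of at least 8.29 per gene, so none was counted as a duplicate. Named are the family, the 12 largest increases and decreases with a mean of at least 5 CPM and the same sign in both grps, the called members with the 4 smallest p of each list, the called ones among the 20 largest genotype increases and decreases, and the 6 smallest p of each difference. Others are said to have been named after their values were seen, or only illustrate a promoter or a marker list. DESeq2 1.42.0, RLE factors, other filters, 1 grp alone and fits without single libraries were alternatives. Some single genes are not reported here.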

Additional observations from a re-analysis of the deposited data

Results flagged for a closer look

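In each treatment of 8 libraries, the highest or lowest library was set against the others by the gap to its neighbour divided by the range, with Dixon's 95% critical value of 0.526. Of 216 groups tested (108 named genes, both treatments) 17 exceeded it, and chance gives about 1 in 20 groups. In combination grp 1 replicate 2 the highest values were those of H2-DMa (112.0 CPM), Slc11a2 (62.7 CPM), Ctns (158 CPM), Atp6v1c1 (116 CPM) and Atg4c (37.3 CPM). In ntc grp 1 replicate 2 they were those of H2-DMa (65.5 CPM), Asb10 (37.6 CPM) and Gm13889 (35.9 CPM). Combination grp 1 replicate 1 was lowest for Gas2l3 (8.57 CPM) and highest for Mycl (12.4 CPM), and combination grp 1 replicate 4 was highest for Notch4 (24.0 CPM) and Sult1a1 (90.1 CPM). Single libraries stood apart for Clec7a (lowest, 292 CPM, ntc grp 1 replicate 4), C1qb (lowest, 1893 CPM, ntc grp 1 replicate 1), Tmem176a (highest, 32.1 CPM, combination grp 2 replicate 1), Rnf150 (highest, 7.16 CPM, ntc grp 2 replicate 4) and Egr2 (highest, 7.11 CPM, ntc grp 2 replicate 1). Each of these genes kept its call and direction in the fit without that library.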

How the results depend on the processing

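RLE factors (973 genes called), a mean of at least 5 CPM (989), DESeq2 (1301) and the batch-corrected signal (1436 and 1434 with pseudocounts of 1 and 8) left the count of 999 within 1.5 times. The filter on low counts removed none of the 10589 genes, so the fit without it had to give the same 999. Without the grp term it was 456 (180 higher, 276 lower), in grp 1 alone 258 (158 and 100) and in grp 2 alone 486 (171 and 315). Leaving out single libraries gave 656 to 1121 genes (328 to 593 higher, 328 to 528 lower), with 328 higher without ntc grp 1 replicate 2, 342 without combination grp 1 replicate 3 and 332 without combination grp 1 replicate 4. The difference between grps, 0 in edgeR, was 223 of 6893 genes tested in DESeq2 (69 and 154) and 0 to 31 without single libraries (0 to 10 higher, 0 to 23 lower). Against the Mitf ASO in WT the count was 297 without the grp term (87 and 210) and 673 to 1049 without single libraries (249 to 497 higher, 409 to 554 lower), with 249 and 281 higher without WT Mitf replicates 1 and 2. Against the Tfe3 ASO it was 25 (4 and 21) and 133 to 335 (47 to 158 higher, 86 to 177 lower), with 133 and 162 without WT ntc replicates 2 and 1 and 166, 149 and 158 without WT Tfe3 replicates 1, 2 and 3. The share of genes higher in SgshKO that were lowered was 2.20% in grp 1 alone, 25.0% by the list of 3 weeks and 8.22 to 11.2% without single libraries. The share of genes lower in SgshKO that were raised was 2.18% without the grp term, 1.92% in grp 1 alone, 2.56% in grp 2 alone, 19.1% for genes of at least 2-fold, 16.1% at 3 weeks and 4.79 to 8.21% without single libraries. Fewer libraries enter the fits of 1 grp and those without a library; otherwise the cause was not tested.

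Some genes that were not called changed sign. In grp 2 alone Ap3d1 was at -0.064, Bcl9 at -0.17, Srsf7 at 0.26, Rbm39 at 0.31 and Tex30 at 0.66. In grp 1 alone Ssh3 was at 0.18 and Anxa5 at 0.046. Without single libraries Rbm39 ran from -0.12 to 0.0039, the latter without combination grp 1 replicate 1, and Tex30 from -0.15 to 0.072. Tex30 was at 0.0018 and 0.0065 without ntc grp 1 replicates 3 and 4, and at 0.0034 and 0.072 without combination grp 1 replicates 2 and 4. Of the 100 named genes called, 16 lost the call without the grp term, 1 with RLE factors, 0 with DESeq2, 7 on the batch-corrected signal, 60 in grp 1 alone and 28 in grp 2 alone. The fit with a replicate block called 1036 genes (566 higher, 470 lower), and 2 named genes lost their call, Myh9 and Becn1. Same-numbered libraries of the treatments correlated in their deviations at 0.0803 to 0.613 in grp 1 and 0.00393 to 0.122 in grp 2, and 5 of 8 correlated best with their own number. Since some pairs were near 0, the numbers were not taken as a pairing, and whether they mark a shared source was not tested. The planned covariate of Ddx3y minus Xist was not run, since Xist was not listed. Genes at a few CPM, such as Fabp5, Gpnmb and Mycl, are limited by depth.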
